A study of Mus musculus with 384 samples.

Results

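The genes of the mitochondrial respiratory chain and ATP synthase were followed in regulatory T (Treg) cells of mouse ear skin. Members were chosen by symbol: those of the nuclear families Ndufa, Ndufb, Ndufc, Ndufs and Ndufv followed by a number, Sdha to Sdhd, Uqcr, Cox4 to Cox8 and Atp5, without processed pseudogenes, and the protein-coding genes of the mitochondrial genome. This gave 90 nuclear and 13 mitochondrial members among 50556 gene symbols. Assigned by symbol, complex I had 42 nuclear and 7 mitochondrial members, complex II had 4 nuclear members, complex III had 8 and 1, complex IV had 19 and 3, and complex V had 17 and 2. Of the 90 nuclear members, 85 had a count in at least 1 well. Ndufb4b, Ndufb4c, Cox6a2, Cox8b and Cox8c had none.

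Treg cells were sorted from mouse skin on day 3 of topical treatment of the ears with 5% imiquimod or vehicle, with 2 mice per treatment. The sources used here give no strain, age or genotype and do not tie a plate to a mouse. Each of 4 plates held 87 wells of 1 cell, 4 wells of 10 Treg cells and 5 wells without a cell, and vehicle and imiquimod had 2 plates each. The 10-cell and empty wells carry no treatment label and are described by plate only.

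The respiratory chain moves electrons from NADH and succinate to oxygen through complexes I to IV and pumps protons across the inner mitochondrial membrane, and complex V, the ATP synthase, uses the proton gradient to make ATP. Complexes I, III, IV and V are built from subunits of both genomes, whereas complex II is wholly nuclear-encoded. Mitochondrial messengers are cut from long transcripts that span most of the mitochondrial genome, while each nuclear subunit has a promoter of its own. Treg cells are known to rely on oxidative metabolism more than effector T cells do.

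Single cells entered the analysis where their well had 500 or more genes and a total of 10000 counts or more. These were 62 and 58 vehicle cells (plates 1 and 2) and 38 and 44 imiquimod cells. Their counts summed to 90448592 and 99396458 (vehicle) and 67319087 and 99183184 (imiquimod), and those of the 10-cell wells to between 11063967 and 26731936 per plate. Each well was a library of its own, and no pair of these wells held identical counts. The Treg marker Foxp3 had a count in 37.1% of kept cells and in all 16 wells of 10 cells. Fibroblast markers (5 of 5 with a count) reached 85.9, 350.7, 119.5 and 202.5 counts per 1000000 (CPM) on vehicle plates 1 and 2 and imiquimod plates 1 and 2, but 5806 CPM in the 10-cell wells of vehicle plate 2. Summed mast cell markers (2 of 5 with a count) were at 272.6 and 115.6 CPM on vehicle and at 4.50 and 6.42 CPM on imiquimod plates, and neutrophil markers (3 of 4) at 120.5 and 395.1 against 54.3 and 55.5 CPM. Their part in the members' values was not tested. A sum over the cells of a plate does not by itself separate fewer cells with a transcript from less transcript per cell. Shares of kept cells with a count are given below for some members. Plates are nested in treatments, so a treatment effect and a difference between whole plates cannot be told apart beyond what the second plate of each treatment shows.

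Reads of the mitochondrial members came almost wholly from 7 of the 13 genes. ND1, ND2, ND4, ND5 and ND6 of complex I, CYTB of complex III and COX1 of complex IV held 2132856 counts over all wells, and the other 6 members held 0.0137% of all mitochondrial member counts. COX2 and ATP8 had no count in any well, COX3 and ATP6 had 8 counts each in 1 well, ND4L had counts in 1 well and ND3 had 44 counts in 17 wells. A count of 0 in the 356347321 counts of the kept cells allows a level of up to 0.00842 CPM, for counting error only. These 6 genes lie next to each other, from COX2 (chrM:7013-7696) to ND4L (chrM:9877-10173, GRCm38, plus strand), between COX1 and ND4. Levels of complex IV and V messengers from the mitochondrial genome therefore rest on COX1 alone for complex IV and on no measured gene for complex V.

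The mouse nuclear genome holds copies of mitochondrial sequence, and a read that fits both places may be dropped or split in counting. In GENCODE M21 transcripts (GRCm38), 100% of the 50-base stretches of COX2, 99.5% of ATP6, 99.9% of COX3, 98% of ND3 and 98.8% of ND4L also occur in another gene's transcript. Each of these 5 genes has a pseudogene on chromosome 1 that is at least 99.71% identical over nearly its whole length. The shares were 62.2% for ND4, 51.1% for COX1, 8.2% for ND2, 7.6% for ND5 and 0% for ND1, ND6 and CYTB. ATP8, without a count, had 0% by this measure too. Gm10925, a copy that contains ATP6 at 100% identity, had 97 counts in 47 wells. Whether the copies set the low counts was not tested. Stretches of 100 bases from the same positions within each gene show the range of likeness, from an exact copy of COX3 on chromosome 1, through COX1 and a copy on chromosome 2 with 1 mismatch, to CYTB and a copy on chromosome 4 with 10. Capitals mark the mismatched bases, and all are read 5′ to 3′ along the gene from GENCODE M21 (COX3 chrM:8907-9006, Gm28437 chr1:24613572-24613671 minus strand, COX1 chrM:5628-5727, Gm13340 chr2:22589248-22589347 minus strand, CYTB chrM:14445-14544, Gm11410 chr4:80004289-80004388 plus strand).
COX3: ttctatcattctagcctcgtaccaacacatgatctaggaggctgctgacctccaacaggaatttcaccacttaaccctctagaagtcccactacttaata
Gm28437: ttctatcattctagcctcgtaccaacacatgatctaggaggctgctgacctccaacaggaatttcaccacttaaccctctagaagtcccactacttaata
COX1: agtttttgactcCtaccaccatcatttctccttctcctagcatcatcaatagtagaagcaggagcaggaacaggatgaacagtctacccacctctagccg
Gm13340: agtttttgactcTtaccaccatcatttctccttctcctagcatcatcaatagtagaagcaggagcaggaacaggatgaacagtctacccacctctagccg
CYTB: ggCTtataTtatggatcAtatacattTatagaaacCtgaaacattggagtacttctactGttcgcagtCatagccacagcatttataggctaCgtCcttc
Gm11410: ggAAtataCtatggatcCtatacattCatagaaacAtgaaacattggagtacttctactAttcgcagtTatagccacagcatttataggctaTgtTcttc

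Per kilobase of gene, the 7 measured mitochondrial members fell into a high and a low set. ND1, a core membrane subunit of complex I, stood at 1126 ± 554 CPM per kb, COX1, the catalytic subunit of complex IV, at 943 (702.2 to 1380.2 over the plates), and CYTB, the haem-bearing core of complex III, at 829.6 ± 141.2 (SD, n = 4 plates of kept single cells). These 3 levels overlapped between plates. ND5 followed at 253.8 ± 122.7 CPM per kb, ND4 at 105.3 ± 43.7, ND6 at 93.2 ± 56.5 and ND2 at 47.4 ± 16.3. The lowest plate of CYTB, 714 CPM per kb, lay above the highest of ND5, 408 CPM per kb. The lowest plate of ND1 (548) and of COX1 (702) did too. Neighbours in the order ND5, ND4, ND6 and ND2 overlapped between plates. With the same counts divided by the length of unshared stretches only, COX1 had a mean of 1994 CPM per kb. ND4 then had 289.1, above ND5 at 282.2. This scaling holds only if reads from shared stretches were not counted, which is not known. ND6 is the gene transcribed from the opposite strand. In the 10-cell wells these 3 genes again had the highest means, with 1323 ± 466 CPM per kb for ND1, 1158 ± 201.1 for COX1 and 1025 ± 401 for CYTB (SD, n = 4 plates). There the lowest plate of CYTB (458 CPM per kb) lay below the highest of ND5 (548 CPM per kb), so the sets overlapped.

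**Figure D1:**
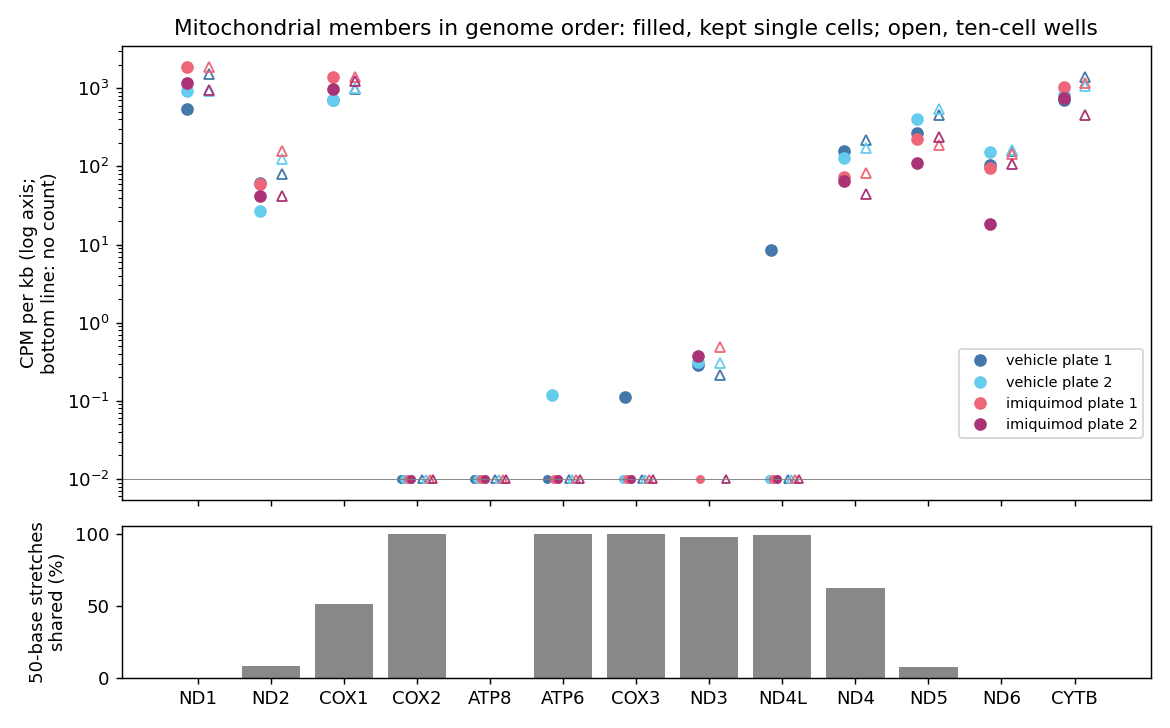
Top: level of each mitochondrial member in CPM per kb of gene (log axis, genome order) in the summed kept single cells (filled) and summed 10-cell wells (open) of each plate, with sums without a count on the bottom line. Bottom: percent of the gene's 50-base stretches that occur in another gene's transcript; the run from COX2 to ND4L has few or no counts, and all of it but ATP8 is shared at 98% or more.

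Mitochondrial ribosomal RNA was the other main product of that genome. The large rRNA mt-Rnr2 had a count in 80.7% of kept cells and in all 16 wells of 10 cells, and both rRNAs held 0.296% and 0.175% of vehicle counts and 0.140% and 0.0743% of imiquimod counts (plates 1 and 2). Both vehicle plates lay above both imiquimod plates (exact two-sided permutation p = 0.33, the smallest that 2 plates against 2 allow, adjusted p = 0.619 over 13 measures). With TMM scaling the treatments overlapped for each rRNA, with mt-Rnr2 at 2598 and 1300.5 against 1789 and 728 CPM and mt-Rnr1 at 50.6 and 37.6 against 187.1 and 43.5 CPM. The ribosomal RNAs also had counts in empty wells, mt-Rnr2 in 8 of 20.

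Nuclear members took a larger share of summed counts than mitochondrial members in the kept cells of all 4 plates. Almost all mitochondrial counts came from 7 of the 13 genes, so the mitochondrial share and the ratios mainly cover those genes. By the median cell the order was reversed on imiquimod plate 2, with 0.260% mitochondrial and 0.220% nuclear counts, and on no other plate. They held 0.377% and 0.497% of counts on vehicle plates 1 and 2, and 1.150% and 0.553% on imiquimod plates 1 and 2. Imiquimod plate 1 held at least 2 times the share of each other plate. The 13 mitochondrial members held 0.327% and 0.392% (vehicle) and 0.572% and 0.385% (imiquimod), a narrower range in which the treatments overlapped. The nuclear share averaged 0.437% ± 0.0852 on vehicle and 0.852% ± 0.422 on imiquimod plates (SD, n = 2 each, exact two-sided permutation p = 0.33, adjusted p = 0.619). The mitochondrial share averaged 0.360% ± 0.0460 and 0.478% ± 0.132 (exact p = 0.667, adjusted p = 0.788). The ratio of nuclear to mitochondrial counts was 1.15 and 1.27 on vehicle and 2.01 and 1.44 on imiquimod plates (exact p = 0.33, adjusted p = 0.619). With 2 plates a group no share could pass a threshold of 0.05. The separation of the treatments rested in part on 2 cells. Without the 2 kept cells of over 7000 genes, 1 on vehicle plate 2 and 1 on imiquimod plate 2, the nuclear share of those plates was 0.461% and 0.443% and the ratio 1.20 and 1.15, so that the treatments overlapped in both measures.

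**Figure D2:**
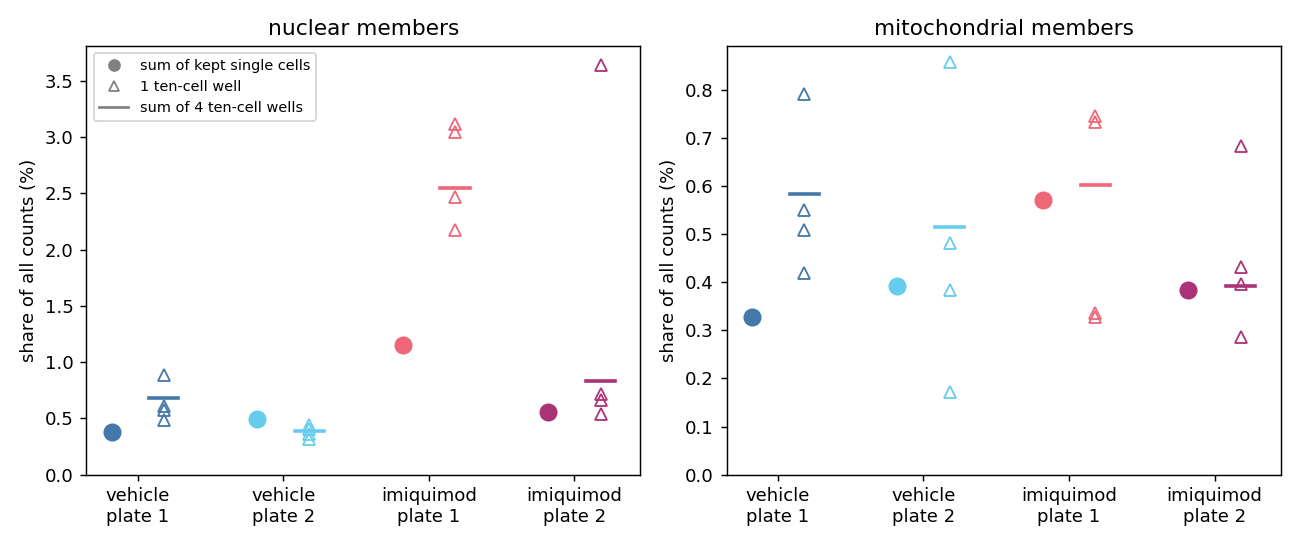
Share of all counts (percent) taken by the 90 nuclear members (left) and the 13 mitochondrial members (right) on each plate; filled points are sums of kept single cells, open triangles single 10-cell wells and bars their sums. The 4 triangles of imiquimod plate 1 lie between 2.18% and 3.11% for nuclear members, above all other 10-cell wells but 1.

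Complex by complex, imiquimod plate 1 led in the nuclear members of every complex, whereas the mitochondrial members were closer together. Nuclear complex I genes held 0.0774% and 0.153% of counts on vehicle plates and 0.422% and 0.204% on imiquimod plates, and the mitochondrial ND genes 0.135%, 0.191%, 0.240% and 0.146% in the same order. The nuclear genes were thus below the ND genes on vehicle plates and above them on imiquimod plates. In complex III, CYTB alone (0.0816%, 0.0927%, 0.118% and 0.0871%) exceeded the sum of its 8 nuclear members (0.0422%, 0.0480%, 0.0912% and 0.0692%) on every plate. Complex IV had 0.0793%, 0.0628%, 0.220% and 0.100% from nuclear genes and 0.110%, 0.108%, 0.213% and 0.151% from COX1. Nuclear complex V genes held 0.131%, 0.191%, 0.363% and 0.162%. The 4 complex II genes held 0.0468%, 0.0427%, 0.0542% and 0.0184%, and the treatments overlapped (exact p = 1). Both imiquimod plates lay above both vehicle plates for the nuclear genes of complexes I, III and IV and for COX1 (exact p = 0.33 each), but not for complex V or the ND genes (exact p = 0.667 each). These sums depend on gene number and length. Per kb of principal transcript, the median nuclear member stood at 29.2, 29.1, 83.2 and 40.9 CPM per kb on the 4 plates, below ND1, COX1 and CYTB on every plate.

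The excess of nuclear members on imiquimod plate 1 was spread over many genes. Of the 80 nuclear members tested, 56 had their highest level on that plate, or 70.0%, against 25.2% of all 14462 genes tested. Complex I contributed 23 of 37, complex II 3 of 4, complex III 5 of 8, complex IV 11 of 14 and complex V 14 of 17. The 10-cell wells of the same plate showed it as well: 62 of the 79 nuclear members with a count there were highest on imiquimod plate 1, against 22.1% of 13672 genes. Imiquimod plate 1 also stood apart in other genes. Cytosolic ribosomal protein genes, which are short and abundant, held 1.16%, 1.26%, 3.58% and 1.75% of counts in kept cells and 1.92%, 0.854%, 10.5% and 2.33% in the 10-cell wells of the same plates. Levels on this plate moved with transcript length: relative to the mean of the other plates, the median log2 difference of genes fell from 0.15 in the shortest of 5 equal length bins to -1.82 in the longest (0.14 and -1.51 in 10-cell wells). Nuclear members are short, with a median principal transcript of 755 bases against 3015 over all genes. Their median difference was 2.26 (3.29 in 10-cell wells). It was -0.12 (0.00 in 10-cell wells) for the 2693 genes between 524 and 1904 bases, the 10th to the 90th percentile of the members. Those genes were chosen by length and not by level. No test was made of these medians, and the part of length in the members' excess was not tested.

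**Figure D3:**
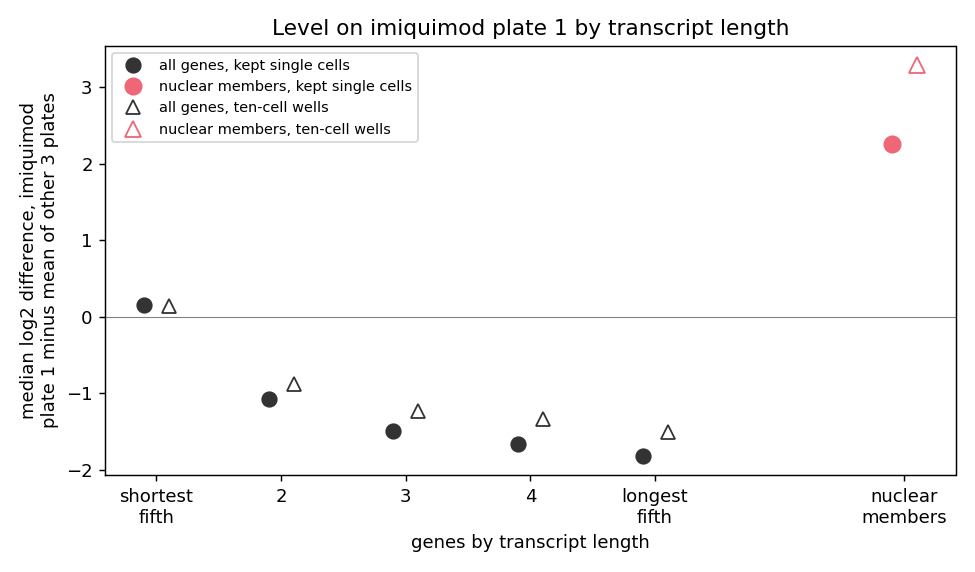
Median log2 difference in level between imiquimod plate 1 and the mean of the other 3 plates, on the log2(CPM + 1) scale with TMM scaling, for all genes tested in 5 bins of transcript length and for the nuclear members with a length; filled points are kept single cells and open triangles 10-cell wells. All genes fall with length, and the members lie at 2.26 and 3.29, above the shortest bin at 0.15 and 0.14.

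The treatment comparison asked how the members differed between imiquimod and vehicle Treg cells, using counts summed over the kept cells of a plate. Most nuclear members were higher in imiquimod, but none passed the test. By edgeR's quasi-likelihood test with Benjamini-Hochberg adjustment, 0 of 80 nuclear and 0 of 8 mitochondrial members were called, as were 0 of all 14462 genes (0.0%). At an unadjusted p under 0.05 there were 3 nuclear and 2 mitochondrial members, all higher in imiquimod, against 1669 genes (11.5%). The common dispersion between plates of a treatment was 2.71, so the lack of calls does not show a lack of difference. DESeq2 called 4603 genes (25.1%) and none of the 88 members it gave an adjusted p. Log2 fold changes (imiquimod over vehicle) were positive for 71 of the 80 nuclear members, against 46.6% of all genes. Their median was 1.74, beside -0.26 over all genes tested and 0.24 over the 8 mitochondrial members. Those 8 include ND3, at 0.136 CPM or less on every plate (log2 fold change -0.295). Among the other mitochondrial members tested, ND2 held the middle value, 0.78. Plates did not overlap for 43 nuclear members: 37 were higher on both imiquimod plates (13.7% of all genes were) and 6 lower (31.1% of all genes were). These counts are of the members that passed the expression filter, and the level and length pattern of imiquimod plate 1 goes into each of them. Without imiquimod plate 1 the nuclear median was 0.82, beside -2.70 over all genes, and 1 nuclear member was called (1.02% of genes were). Without imiquimod plate 2 it was 2.19, beside -6.56 over all genes, and 5 nuclear members and ND1 were called (3.91% of genes were). On the mean log2(CPM + 1) per cell, where each cell counts alike, the nuclear median was -0.008 and 48.8% were positive.

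**Figure D4:**
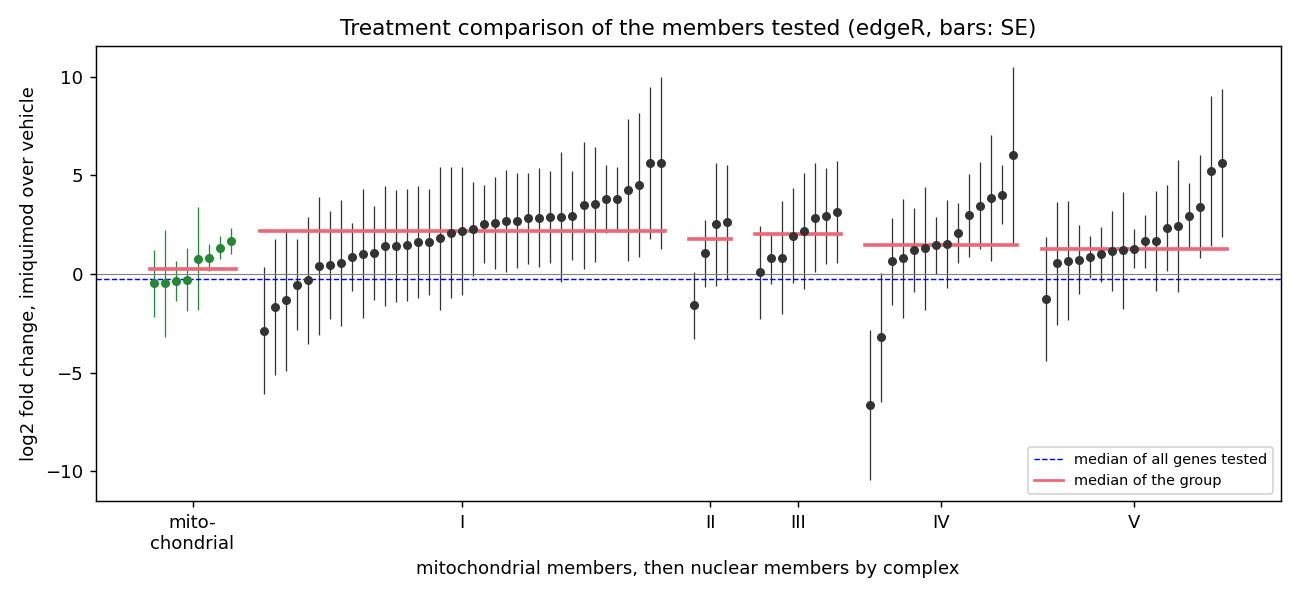
Log2 fold change (imiquimod over vehicle, edgeR, points with SE bars) of each member tested, first the 8 mitochondrial members and then the nuclear members by complex; short lines are group medians and the dashed line the median of all genes tested at -0.26. Nuclear medians lie between 1.29 (complex V) and 2.19 (complex I), with bars that are wide beside them.

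Complex I takes electrons from NADH and passes them to ubiquinone. Of its 37 nuclear members tested, 32 had a positive log2 fold change and 2 reached an unadjusted p under 0.05. Ndufs3, a core subunit of the arm that binds NADH, was at 2.91 and 67.8 CPM (TMM-normalised, as all single-gene levels below) on vehicle plates and at 651 and 333.2 CPM on imiquimod plates. Both imiquimod plates lay above both vehicle plates, which themselves differed widely. Its log2 fold change was 3.80 ± 1.65 (SE, edgeR adjusted p = 0.42). It was 0.55 in cells of at least 1000 genes, 7.40 without vehicle plate 2 and 0.26 as a difference in mean log2(CPM + 1) per cell. Ndufs7, an iron-sulfur subunit next to the ubiquinone site, was at 23.1 and 27.9 CPM against 605 and 102.6 CPM (3.80 ± 1.73, edgeR adjusted p = 0.43). Ndufs7 had a count in 6.44% of kept cells, so few cells carried these levels. Ndufa10, an accessory subunit, was the most abundant nuclear member of complex I by mean CPM, at 0.00989 and 168.1 CPM on vehicle plates and 1163 and 32.8 CPM on imiquimod plates. Ndufs8, an iron-sulfur subunit, overlapped between treatments at 35.0 and 6.53 against 289.98 and 10.1 CPM, and Ndufa13, an accessory subunit also known as Grim19, stood at 20.0 and 26.1 against 183.4 and 95.3 CPM. The 7 nuclear core subunits were not uniform: 5 had a positive and 2 a negative log2 fold change. Ndufs1, an iron-sulfur core subunit, was lower on both imiquimod plates, at 44.4 and 53.8 against 4.64 and 8.72 CPM (-2.88 ± 3.23, edgeR adjusted p = 0.81); it is named here after its values were seen.

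The mitochondrial subunits of complex I did not move as a block. ND1 was at 469.6 and 676 CPM on vehicle plates and at 2509.8 and 1159.8 CPM on imiquimod plates, without overlap (log2 fold change 1.68 ± 0.67, SE, unadjusted p = 0.027, edgeR adjusted p = 0.42). ND5 overlapped, at 443 and 569 against 576 and 210.9 CPM (-0.36 ± 1.01). So did ND4, at 192.8 and 133.6 against 140.2 and 94.1 CPM (-0.48 ± 1.70), ND6, at 48.3 and 61.5 against 69.7 and 9.82 CPM (-0.47 ± 2.71), and ND2, at 56.3 and 21.3 against 88.1 and 45.1 CPM (0.78 ± 2.61). The negative values of ND4, ND5 and ND6 depend on scaling. With DESeq2 size factors, which raise the median log2 fold change of all genes by 0.37, 87.5% of the 8 tested mitochondrial members were positive against 50.0% with TMM. ND3, nearly without counts, is 1 of these 8 and was negative with both (-0.08 and -0.295).

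Complex II, succinate dehydrogenase, also serves the citric acid cycle. Sdha, its catalytic flavoprotein, was lower on both imiquimod plates, at 157.4 and 280.5 against 86.9 and 58.4 CPM (-1.59 ± 1.71, SE, edgeR adjusted p = 0.80). Sdhb, the iron-sulfur subunit, was uneven within both treatments, at 241.7 and 22.7 against 502 and 44.4 CPM. The membrane anchors Sdhc (5.14 and 14.1 against 75.1 and 35.5 CPM) and Sdhd (14.5 and 9.53 against 98.3 and 53.1 CPM) were higher on both imiquimod plates. In these sums the catalytic subunit and the anchors lay on opposite sides of their vehicle plates, and none of the 4 genes passed the test (smallest edgeR adjusted p = 0.80). Single cells carried much of these levels. For Sdhc, 1 cell gave 92.7% to 99.2% of the counts of each plate. For Sdhd it gave 80.4% and 99.9% on vehicle and 64.1% and 46.9% on imiquimod plates. For Sdha it gave 45.3% and 27.3% on vehicle and 99.95% and 76.0% on imiquimod plates.

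Complex III passes electrons from ubiquinol to cytochrome c. All 8 nuclear members had a positive log2 fold change (median 2.05), and 4 of them were higher in imiquimod without overlap between treatments. Of all genes tested, 13.7% were higher without overlap, and 44.8% did not overlap in either direction. Uqcrc1, a core protein, was at 184.05 and 190.2 CPM on vehicle and 426 and 221.1 CPM on imiquimod plates (0.79 ± 1.28, SE). Without TMM scaling the treatments overlapped for Uqcrc1. Uqcrfs1, the Rieske iron-sulfur protein, overlapped between treatments, at 82.7 and 49.1 against 72.6 and 66.9 CPM (0.08 ± 2.37). The small subunits Uqcr10 (18.4 and 21.5 against 295.3 and 13.4 CPM), Uqcr11 (13.5 and 13.7 against 162.9 and 79.6 CPM) and Uqcrq (25.3 and 34.0 against 68.4 and 158.97 CPM) had larger folds, of which Uqcr10 rested on imiquimod plate 1 alone. CYTB was at 731 and 709 against 1663 and 905 CPM, without overlap (0.84 ± 0.69, SE, edgeR adjusted p = 0.70). This separation depends on scaling: as unscaled shares of counts the treatments overlapped, at 0.0816% and 0.0927% against 0.118% and 0.0871%.

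Complex IV, cytochrome c oxidase, reduces oxygen. Cox6a1, a subunit at its regulatory face, had the smallest p of any nuclear member, at 29.9 and 26.8 CPM on vehicle plates against 716 and 207.6 CPM on imiquimod plates (4.03 ± 1.51, SE, unadjusted p = 0.020, edgeR adjusted p = 0.42). It had a count in 15.0% of vehicle and 15.9% of imiquimod cells, nearly the same share in both treatments. Cox8a (117.7 and 45.4 against 534 and 148.6 CPM), Cox4i1 (158.9 and 66.4 against 360.9 and 257.5 CPM), Cox6b1 (19.7 and 31.0 against 327.4 and 72.1 CPM) and Cox7b (8.06 and 2.69 against 146.6 and 9.38 CPM) were also higher on both imiquimod plates without passing the test. COX1, the mitochondrial subunit that holds the oxygen-reducing site, was at 986 and 829 against 3001 and 1570.2 CPM (1.33 ± 0.58, SE, unadjusted p = 0.039, edgeR adjusted p = 0.42). Cox6a1 and COX1 thus had the 2 smallest p-values of this complex, 1 from each genome.

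Isoforms of complex IV known from muscle, lung or testis, and Ndufa4l2, placed in complex I by its symbol, were mostly low or without counts. Of 8 such genes in the files, 5 had a count in any well and 3 were tested. Cox6a2, Cox8b and Cox8c had no count, which over all kept cells allows a share of cells with a count of up to 1.49%. Cox6b2 had a count in 0.495% of kept cells and Ndufa4l2 in 1.49%. Cox4i2, the lung isoform, had the highest level of them, at 104.95 and 106.9 CPM on vehicle plates against 22.8 and 0 CPM on imiquimod plates, yet it was detected in only 3.96% of kept cells (edgeR adjusted p = 0.78). Cox7b2 was at 11.0 and 0.869 against 0.0627 and 0.0524 CPM, with a count in 8.42% of kept cells, and Cox7a1, the heart and muscle isoform, at 0 and 0.215 against 14.5 and 0 CPM. Summed markers of endothelial cells were at 163.6 and 433 CPM on vehicle plates and at 0.876 and 285.4 CPM on imiquimod plates (3 of 3 with a count). Those of skeletal muscle were at 105.7 and 80.3 CPM against 0 and 0.0202 CPM (6 of 6 with a count). Their part in the levels of Cox4i2, Cox7a1 and Cox7b2 was not tested.

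Complex V makes ATP. Its most abundant nuclear members encode the catalytic head, and these overlapped between treatments. Atp5a1, the alpha subunit, was at 330.2 and 379.2 CPM on vehicle plates and at 1475 and 257.6 CPM on imiquimod plates (1.29 ± 0.98, SE), and Atp5b, the catalytic beta subunit, at 197.9 and 424 against 872 and 267.6 CPM (0.87 ± 1.06). In both, imiquimod plate 2 lay below the higher vehicle plate. Atp5d, the delta subunit of the central stalk, was at 136.7 and 155.2 against 391 and 188.7 CPM, and Atp5pb, of the peripheral stalk, at 113.8 and 123.1 against 460.0 and 282.4 CPM, both without overlap. For Atp5d this depends on scaling, since the treatments overlapped without it. Small membrane subunits differed among themselves. Atp5l was at 0.317 and 1.80 against 72.3 and 31.5 CPM (5.61 ± 3.75, SE, edgeR adjusted p = 0.60) and Atp5md at 6.16 and 2.90 against 28.6 and 20.0 CPM. The genes of the membrane ring, Atp5g1, Atp5g2 and Atp5g3, named after their values were seen, had log2 fold changes of 1.16, 0.54 and -1.28. Of the 50-base stretches of Atp5l, 84.8% occur in another gene's transcript, so its counts are uncertain where reads were split. Atp5l was the only 1 of 82 matched nuclear members above 50%. Another 12 lay at 25% to 50%, among them Ndufs3 (39.7%), Atp5o (34.0%) and Ndufa13 (28.5%), with the same uncertainty to a lesser degree. Atp5o, the stalk protein that confers oligomycin sensitivity, stood at 30.3 and 66.7 against 689 and 51.2 CPM and rested on imiquimod plate 1. Of the 17 nuclear members, 16 had a positive log2 fold change (median 1.29). No mitochondrial member of complex V could be measured.

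Most nuclear members were seen in few cells, and single cells carried much of a plate's level. Over all 90 nuclear members the median share of kept cells with a count was 7.67%, and 5 members had one in more than 20%: Atp5a1 (26.2%), Atp5b (25.2%), Cox4i1 (22.3%), Uqcrh (21.3%) and Cox8a (20.8%). By contrast ND1 had a count in 62.4%, COX1 in 56.9%, CYTB in 49.0% and ND5 in 43.1%. A single cell gave over 50% of a plate's counts for 51 of 79, 40 of 80, 57 of 76 and 55 of 78 nuclear members on vehicle plates 1 and 2 and imiquimod plates 1 and 2, and for 1 or 2 mitochondrial members per plate. Leaving out the highest cell of each plate for each gene, an alternative chosen after seeing the data, left the nuclear median at 1.92, with 77.6% positive and none called. More nuclear members were seen in a higher share of vehicle than of imiquimod cells (59 against 25 of the 84 with a count in a kept cell), in contrast to the direction of most fold changes in counts. The share over all genes is not given here, so this direction cannot be called particular to the members. Of the 51 cells with 2000 genes or more, 42 were vehicle cells, and the part of this in the shares was not tested. Empty wells held counts of 19 nuclear and 4 mitochondrial members, in at most 4 of 20 wells each. Single empty wells held between 0 and 1527760 counts, and nuclear members held 2.49% and mitochondrial members 0.544% of their summed counts, neither share below that of kept cells (0.606% and 0.408%). The part of such background in the single-cell values was not tested.

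Set to one depth of 100000 counts per cell, the number of nuclear members detected did not separate the treatments. The median cell had 3 and 3 of 90 on vehicle plates (61 and 58 cells) and 3 and 2 on imiquimod plates (35 and 44 cells; exact two-sided permutation p = 1, n = 2 plates each). Without thinning the medians were 4.5 and 6 against 3 and 3.5 (exact p = 0.33). Of the kept cells, 17 had no count for any nuclear member and 45 none for any mitochondrial member. The number rose with the genes detected in a cell: it had a median of 2 in the 81 cells of 500 to under 1000 genes, 5.5 in the 70 cells of 1000 to under 2000 genes and 16 in the 51 cells with 2000 genes or more. Of those last cells 9 were imiquimod cells. Spearman's rho between genes detected and nuclear members detected was 0.78 over all kept cells, a description in which both numbers share the depth of the library. The highest cell, on imiquimod plate 2, had 79 of 90 nuclear members and 7483 genes, and the next, on vehicle plate 2, had 71 and 8033 genes, both above the 66 of the highest 10-cell well. The mitochondrial and nuclear shares of a cell were weakly related (rho 0.39 over all kept cells, 0.09 over 16 wells of 10 cells, where both shares come from one library).

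**Figure D5:**
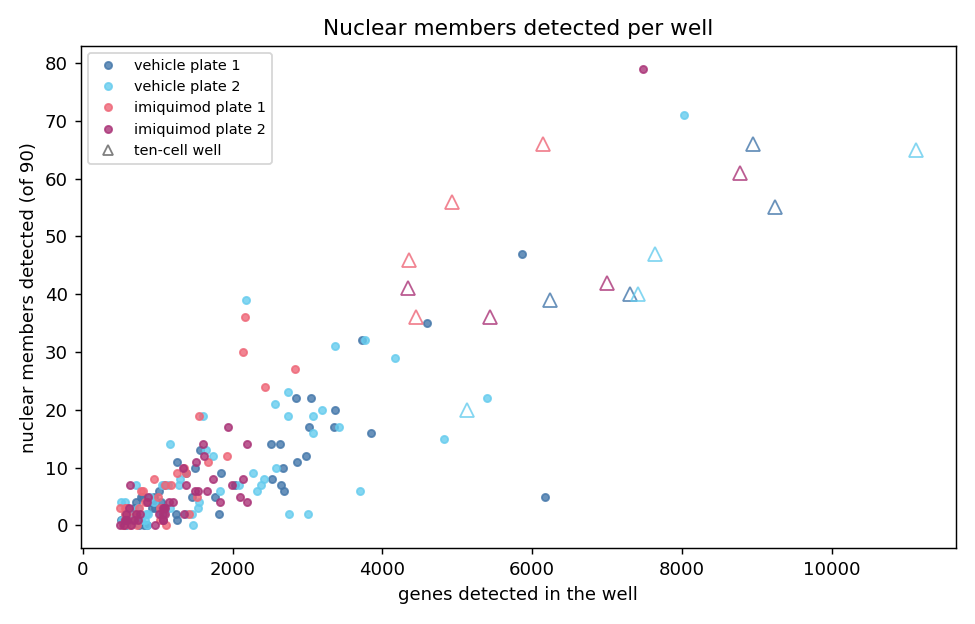
Nuclear members detected (of 90) against genes detected in each kept single cell (dots) and 16 wells of 10 cells (triangles), coloured by plate. Most single cells lie below 20 members, the 10-cell wells between 20 and 66, and 2 single cells at 71 and 79.

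More nuclear members were detected in each 10-cell well than in most single cells. They had a median of 47.5, 43.5, 51 and 41.5 nuclear members detected on vehicle plates 1 and 2 and imiquimod plates 1 and 2, with 20 to 66 in single wells, and a median of 7 mitochondrial members on every plate. The nuclear members had a count in a median of 9.5 of the 16 wells, and Atp5b in all 16, as did ND1, ND4, COX1 and CYTB. COX2, COX3, ATP6, ATP8 and ND4L had no count in any of them, and ND3 had counts in 4. The near absence of these genes was therefore shared by single and pooled cells.

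Compared with the kept single cells of the same plates, the 10-cell wells held a larger share of mitochondrial members on 4 of 4 plates, at 0.583%, 0.514%, 0.603% and 0.393% against 0.327%, 0.392%, 0.572% and 0.385%. The mean difference of 0.104 percentage points reached an exact paired permutation p of 0.13, the smallest that 4 plates allow (adjusted p = 0.487 over 13 measures). Nuclear members were at 0.680%, 0.386%, 2.55% and 0.8286% and were higher than in single cells on 3 of 4 plates (exact paired permutation p = 0.25, adjusted p = 0.487). The ratio of nuclear to mitochondrial counts was 1.17, 0.750, 4.23 and 2.11. On imiquimod plate 1 nuclear members of complex I alone took 1.06% of counts in 10-cell wells. On imiquimod plate 2, 1 well of 710021 counts had a nuclear share of 3.65%, while the other 3 lay between 0.543% and 0.717%.

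Gene by gene, edgeR with the plate as a block called 0 of 78 nuclear and 0 of 7 mitochondrial members between 10-cell and single-cell sums, as it did 0 of 11452 genes (0.0%). An unadjusted p under 0.05 was reached by 1.98% of genes and by no member. DESeq2 called 1028 genes (5.59%) and none of the 89 members with an adjusted p. Log2 fold changes (10-cell over single-cell) were positive for 50 of 78 nuclear members (43.7% of all genes), with a median of 0.19 beside -0.28 over all genes. Without imiquimod plate 1 the median was -0.23 and 42.3% were positive. This comparison uses the same single cells as the treatment comparison. Ndufa13 had the smallest p of the nuclear members, at 22.0, 30.3, 186.9 and 98.5 CPM in single cells against 88.6, 43.6, 2051 and 165.03 CPM in 10-cell wells, higher on 4 of 4 plates (1.65 ± 0.80, SE, unadjusted p = 0.061, edgeR adjusted p = 1). Ndufs8 was at 38.5, 7.59, 295.4 and 10.4 CPM against 94.6, 117.6, 430.4 and 66.6 CPM (2.10 ± 1.33, SE), again higher on 4 of 4 plates. Atp5d was at 150.3, 180.3, 399 and 195.1 against 469, 194.1, 1477 and 252.1 CPM (1.00 ± 0.66, SE), and Atp5md at 6.78, 3.37, 29.1 and 20.7 against 14.8, 226.01, 247.03 and 56.6 CPM (2.75 ± 1.88, SE). Across all nuclear members, 9 of 78 were higher in 10-cell wells on every plate (3.83% of all genes were) and 2 lower (7.69% of all genes were). Some members of large fold between treatments did not lead in 10-cell wells: Ndufs3 was at 194.6, 7.5, 36.6 and 48.2 CPM there, with vehicle plate 1 highest, and Cox4i2 at 6.28, 4.94, 0 and 0.625 CPM. With TMM scaling, unlike the shares above, log2 fold changes were 0.07 ± 0.40 for ND1, 0.12 ± 0.28 for COX1 and 0.002 ± 0.45 for CYTB (SE, n = 4 plates). These are the smallest standard errors among the named members. The plates differed in direction. ND1 was higher in 10-cell wells on vehicle plate 1 (1312 against 516.5 CPM) and lower on imiquimod plate 2 (701 against 1199 CPM). CYTB went the same ways there (1453 against 803.5 CPM and 402 against 936 CPM). The other measured mitochondrial members were at -0.065 ± 1.05 (ND4), 0.28 ± 0.53 (ND5), 0.71 ± 1.72 (ND6) and 0.79 ± 1.57 (ND2).

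Other mitochondrial genes gave the setting of these values in the treatment comparison, where again no gene passed. Mitochondrial ribosomal proteins had 50 of 73 positive log2 fold changes and a median of 1.87, close to that of the nuclear members. Mrpl4, a protein of the large mitochondrial ribosomal subunit, was at 66.2 and 85.3 CPM on vehicle plates against 749 and 513 CPM on imiquimod plates (3.06 ± 1.18, SE, edgeR adjusted p = 0.42). Assembly factors went the other way or were mixed: complex I assembly genes had 5 of 14 positive (median -2.80) and those of complexes II to V 13 of 24 (median 0.39). Uqcc2, an assembly factor of complex III, was at 2.64 and 2.37 against 186.6 and 223.9 CPM (6.36 ± 2.49, SE, edgeR adjusted p = 0.42). Genes that express the mitochondrial genome had 9 of 28 positive (median -1.29). The regulators had 8 of 13 positive (median 0.32). Among them Gabpb2, a subunit of the factor GABP that acts on many respiratory genes, was at 62.3 and 104.6 against 612 and 321.4 CPM. Gabpb1, another subunit of GABP, overlapped and had a negative log2 fold change, at 272.9 and 51.8 against 0.857 and 121.96 CPM (-1.40 ± 2.28, SE). Hif1a, the hypoxia factor, overlapped at 179.7 and 372.2 against 345.2 and 168.1 CPM. Citric acid cycle genes had 11 of 19 positive (median 0.28), carriers and channels 9 of 14 (median 0.22), antioxidant enzymes 8 of 13 (median 1.07) and genes of mitophagy and mitochondrial apoptosis 10 of 13 (median 0.86). Slc25a3, the phosphate carrier that supplies the ATP synthase, was at 788 and 947 against 965 and 1197 CPM (0.32 ± 0.68, SE), and Slc25a5, an ADP and ATP exchanger, at 264.3 and 249.6 against 586 and 388 CPM. Subunits outside the rule, among them Cyc1 (71.3 and 104.4 against 305.8 and 189.6 CPM) and Higd2a (26.6 and 8.34 against 499 and 38.5 CPM), had 7 of 7 positive (median 2.53). Cox7a2l, a member known for joining complexes III and IV, overlapped at 74.1 and 58.8 against 165.7 and 42.1 CPM.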

How the data were processed

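The authors deposited a matrix of read counts per gene and well. Per the submitters' processing notes, the tools were STAR 2.7.3a, Trimmomatic 0.39 and SAMtools 1.12, with the build mm39. Which program counted reads, with what annotation and strand, is not given in the sources used here, so overlapping and duplicated genes are uncertain. Per the labels' protocols, cDNA was primed with oligo dT, which favours polyadenylated RNA, and amplified by PCR; no molecular identifiers are mentioned, so limits cover counting error only. Members and lists were chosen with earlier results of these data known. The plate was the replicate, so p-values measure the spread between plates, which may be technical.

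Counts of kept cells and of 10-cell wells were summed per plate and tested with edgeR 4.0.16 (filterByExpr, TMM, quasi-likelihood) against DESeq2 1.42.0 and limma 3.58.1, after the scripts were tested on simulated data, where at the fitted dispersion they recovered almost none of the changed genes. Shares were compared by exact permutation over plates. Single-gene levels are TMM-normalised CPM of the comparison they stand in; shares, list sums and levels per kb are unscaled. Lengths were those of APPRIS principal transcripts in GENCODE M21 (82 of 90 nuclear members matched) or, for mitochondrial genes, the gene; no mm39 annotation was used. Named were all mitochondrial members and, per nuclear complex, the 4 of highest level and the 2 of smallest p in each comparison; of other lists, a subset of the 3 of highest level. The plate pairs 10-cell with single-cell sums through the library numbers of the labels. Their deviations correlated at 0.071, 0.141, 0.172 and 0.033 within plates and at -0.147 to 0.096 between plates, so the 2 ranges overlap. A gene that this rule names is not reported here.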

Additional observations from a re-analysis of the deposited data

Results flagged for a closer look

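Among the 4 wells of 10 cells on imiquimod plate 2, 1 well stood apart with 3.65% of its counts in nuclear members, against 0.543% to 0.717% in the other 3; it was the shallowest 10-cell well, with 710021 counts. The number of mitochondrial members detected stood apart in 1 well of vehicle plate 1 (8, against 7 in the others) and in 1 well of imiquimod plate 1 (6, against 7), differences of 1 gene. These came from 16 groups of 4 wells. Chance alone marks about 1 in 20 such groups for continuous values such as shares. That rate does not hold for numbers of members detected, where most wells tie.

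The single-cell wells with 10000 counts or more but fewer than 500 genes entered no comparison. Mitochondrial members held 0.583% of their counts, above the 0.544% of the empty wells and the 0.408% of kept cells. In single wells of this kind the share ran from 0% to 16.4%, with a median of 0%.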

How the results depend on the processing

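No member was called in the treatment comparison under any alternative except 2 that left out a plate: over those left out in turn, 0 to 5 nuclear and 0 to 1 mitochondrial members were called. Their medians ran from 0.82 to 2.20 (nuclear) and -0.17 to 0.45 (mitochondrial), and 67.5% to 86.3% and 44.4% to 66.7% were positive. Without imiquimod plate 2 the calls were Cox6a1, Ndufa10, Ndufs3, Ndufs7, Atp5o and ND1, all higher in imiquimod; without imiquimod plate 1 it was Cox4i2, lower. The remaining imiquimod plate is then assumed to vary like the vehicle plates. With limma on mean log2(CPM + 1) the nuclear median was -0.008 and 48.8% were positive; each cell counts alike there, whatever its depth. The mitochondrial median was 0.76 (87.5% positive) with DESeq2 size factors and -0.43 without the expression filter, where members nearly without counts also enter. It was 1.21 without the highest cell per gene and plate, and 0.84 without the 2 cells of over 7000 genes. ND3, nearly without counts, was not tested in those last 2 settings. Both of these medians were the value of ND2, which was 0.78 in the main fit. The median over all genes moved by 0.37 with DESeq2 size factors, -1.57 without the filter, and -2.44 and -6.30 without imiquimod plate 1 or 2. All genes called numbered 9 without the filter, 4603 with DESeq2, and 0 to 794 with a plate left out.

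The 10-cell comparison called no member under any alternative. Without the plate as replicate block, the nuclear median was 0.89 and 78.2% were positive, against 0.19 and 64.1% with it, and no member was called. Without the expression filter 27.3% of mitochondrial members were positive, and without a plate 42.3% to 69.2% of nuclear and 57.1% to 100% of mitochondrial members, with medians of -0.23 to 0.49 and 0.08 to 0.27.

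Differences in share (imiquimod minus vehicle) were positive under every filter, denominator and omitted plate tried: 0.116 to 0.713 percentage points for nuclear members, 0.0248 to 0.212 for mitochondrial members and 0.229 to 0.801 for their ratio with a plate left out. The difference in ratio was 0.0353 from medians of per-cell shares and 1.08 in cells of at least 1000 genes, against 0.515; the median cell of imiquimod plate 2 had 0.260% mitochondrial and 0.220% nuclear counts. The number of nuclear members detected differed by -0.5 at 100000 counts per cell, by 0.5 at 10 counts or more without thinning, and by -1 to 0 with a plate left out. Of the single-gene values of named members, 31 treatment and 44 10-cell values changed sign without a call.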
